A study of Homo sapiens with 17 samples.

Results

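The BCL2 family sets the threshold at which a cell commits to the mitochondrial pathway of apoptosis, and 10 of its genes were examined here out of 38147 genes of the RefSeq table (protein-coding or lncRNA, each symbol occurring once). The genes were taken from a fixed list by name, and that list was chosen with earlier results of these data known. They comprised 3 survival members (BCL2, BCL2L1 and MCL1) and 7 death-promoting members, namely the effector BAK1 and the BH3-only genes BCL2L11, BID, BAD, PMAIP1, BMF and BIK. All 10 were found in the table by symbol.

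Survival members hold effectors such as BAK1 in check at the outer mitochondrial membrane. BH3-only proteins carry stress signals to that membrane, some by occupying the survival proteins and some by also engaging the effectors directly, and active effectors then open the membrane so that cytochrome c leaves the mitochondria and caspases are switched on. Breast cancer cells that depend on HER2 often rely on MCL1 and BCL2L1 for survival, and BCL2L11, the gene of BIM, is held low by growth factor signalling through the MAP kinase pathway.

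The cells were HCC1954, an established HER2-positive breast cancer line, transfected with antisense oligonucleotides and fixed 72 hours later, per the labels' protocols. The labels give 2 arms as genotypes, NC1235 and Si1235, do not spell out NC or Si, and name no other alteration; LINC01235, a long non-coding RNA, is named in the series title. Chromatin immunoprecipitation and sequencing (ChIP-seq) was done on 2 libraries per arm for H2AZ (the histone variant H2A.Z), H3K27ac and H3K36me3 and on 1 library per arm for H3K9ac, and 1 library came from chromatin isolation by RNA purification (ChIRP), titled NC1235, which recovers DNA lying near an RNA that is caught with probes. All samples come from this 1 line, and whether the replicates were grown as separate cultures is not stated, so p-values measure spread between libraries that may be technical.

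H2AZ, H3K27ac and H3K9ac mark the promoters of active or poised genes, and H3K36me3 is laid down over gene bodies during transcription. Each promoter mark was read as the percent of the window 1.0 kb either side of the gene start that called peaks covered, and H3K36me3 as the percent of the gene body covered. Cover is a measure of extent, so a taller peak of the same width gives the same value. Lists ranged from 42759 to 51229 peaks (H2AZ), 44836 to 48391 (H3K27ac) and 67302 to 81320 (H3K36me3), with 59945 and 60035 in the H3K9ac lists and 128273 in the ChIRP list. The lists give no read depth; replicate 2 had the lower background level in every mark and arm except NC1235 H3K27ac, where the levels (1.461 in replicate 1 and 1.548 in replicate 2) rest on scaled pileups and give no depth, so values within each replicate number are given for the larger differences. The 6 epithelial marker genes KRT8, KRT18, KRT19, EPCAM, CDH1 and ERBB2 all carried H3K27ac at their starts in all 4 libraries (summed cover 534% to 554%). Of 3 measured blood and immune markers 2 carried H3K27ac, with a summed cover of 45.3% and 66% in NC1235 against 81.1% and 104% in Si1235. CD3E, a T cell gene, had 23.2% and 24.1% in NC1235 against 57.2% and 52.4% in Si1235, CD14 ranged from 22.1% to 52%, and PTPRC, which marks leukocytes, was at 0% throughout; none of the immune markers measured for H3K36me3 had any in the gene body. Of 5 fibroblast and endothelial markers 2 carried H3K27ac (COL1A1 at 11.7% to 14.2%, CDH5 at 6.05% to 38.5%), with a summed cover of 17.8% to 52.6%, and COL1A2, PDGFRB and PECAM1 were at 0%. The part of these marker genes' cover in the results was not tested. Peak names inside the 2 H3K9ac lists carry another histone residue in place of K9; the labels were followed, so every H3K9ac value here rests on the labels.

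The start regions of BCL2L11, PMAIP1, BID and BAK1 are shown as examples from the members. In that order they are the window with the largest H2AZ difference, the one filled by acetylation in every library, the one with the largest H3K27ac difference, and the effector's. The sequences are the 250 bases before the outermost annotated start, from RefSeq (GRCh38.p14), with the strand of transcription given and each GC box (GGGCGG, or its reverse complement CCGCCC on the other strand) in capitals. The BCL2L11 stretch lies at chr2:111120664-111120913 on the plus strand, the PMAIP1 stretch at chr18:59899746-59899995 on the plus strand, the BID stretch at chr22:17774666-17774915 on the minus strand and the BAK1 stretch at chr6:33580277-33580526 on the minus strand.
BCL2L11: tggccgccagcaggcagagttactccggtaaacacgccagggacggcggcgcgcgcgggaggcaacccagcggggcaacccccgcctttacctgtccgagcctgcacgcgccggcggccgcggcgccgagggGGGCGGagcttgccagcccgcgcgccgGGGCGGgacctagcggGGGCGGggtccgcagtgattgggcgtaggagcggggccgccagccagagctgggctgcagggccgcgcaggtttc
PMAIP1: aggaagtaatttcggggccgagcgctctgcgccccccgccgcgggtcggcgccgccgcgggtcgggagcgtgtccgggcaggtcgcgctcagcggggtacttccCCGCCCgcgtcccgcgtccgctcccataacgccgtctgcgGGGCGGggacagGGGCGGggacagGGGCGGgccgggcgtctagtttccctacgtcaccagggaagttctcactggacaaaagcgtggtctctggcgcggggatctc
BID: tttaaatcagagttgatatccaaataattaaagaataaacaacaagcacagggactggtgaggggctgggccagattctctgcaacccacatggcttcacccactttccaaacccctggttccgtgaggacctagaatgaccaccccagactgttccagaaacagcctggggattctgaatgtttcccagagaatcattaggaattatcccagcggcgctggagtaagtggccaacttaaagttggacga
BAK1: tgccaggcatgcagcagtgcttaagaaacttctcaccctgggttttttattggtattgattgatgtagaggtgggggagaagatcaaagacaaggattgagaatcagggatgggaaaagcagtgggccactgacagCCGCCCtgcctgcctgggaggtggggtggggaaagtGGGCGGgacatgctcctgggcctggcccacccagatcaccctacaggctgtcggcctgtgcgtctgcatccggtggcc

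PMAIP1 and BCL2L11 have the CpG-rich start of a typical CpG island promoter, with 36 CpG in the 250 bases of PMAIP1 and 34 in those of BCL2L11. BAK1 has 5 CpG and BID has 4. The GC box occurs 4 times in the PMAIP1 stretch, 3 times in that of BCL2L11, 2 times in that of BAK1 and not at all in that of BID. Promoter entries were matched for 8 of the 10 members, the exceptions being MCL1 and BIK. Over the whole 300-base entries (250 bases before to 50 after the start), GC content was 74.7% for BCL2L11, 71.3% for PMAIP1, 70.7% for BCL2 (an entry inside its longest transcript), 68.3% for BAD, 65.0% for BMF, 58.7% for BAK1, 52.0% for BCL2L1 and 48.7% for BID, against a median of 58.3% over the first entries of 27305 genes. The ratio of observed to expected CpG was 1.11 for PMAIP1 and 0.28 for BAK1, against a median of 0.58. A GC box on either strand was found in 44.6% of those entries, and in 5 of the 8 members (BAK1, BCL2L11, BAD, PMAIP1 and BMF). The TATA element TATAAA, present in 12% of entries, was found in BCL2L1 alone among the 8. No match for the E-box CACGTG, present in 7.4% of entries, was found in the 8 members' 300 bases. These matches describe letters in a window and say nothing of which factor binds.

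No member passed the test between arms in any of the 3 replicated marks. Tests were made with limma on cover in percentage points (Si1235 minus NC1235), with p-values adjusted by the Benjamini-Hochberg method over all tested genes and a threshold of 0.05. For H2AZ, 0 of 17359 tested genes passed (0%), and 1032 had an unadjusted p under 0.05. For H3K27ac, 68 of 15412 tested genes passed (0.441%), and none of the 9 members tested was among them. For H3K36me3, 0 of 8349 tested genes passed (0%), with 663 at an unadjusted p under 0.05.

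**Figure D1:**
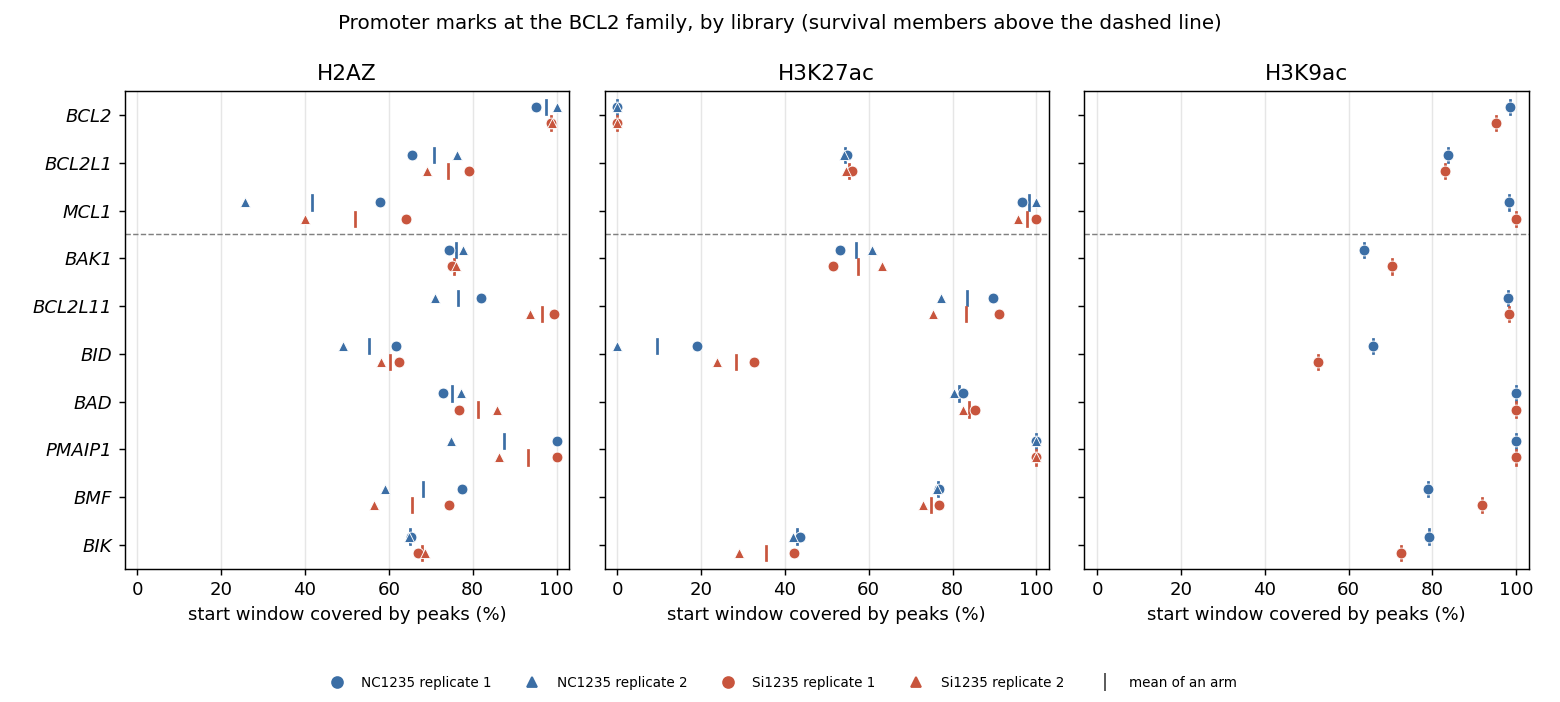
Percent of the start window covered by peaks of each promoter mark (x axis) at the 10 genes (y axis); circles are replicate 1, triangles replicate 2, vertical ticks the mean of an arm, blue NC1235 and red Si1235, and H3K9ac has 1 library per arm. BCL2 is covered almost throughout by H2AZ and H3K9ac and has no H3K27ac, while BCL2L11 H2AZ lies between 70.9% and 82% in NC1235 and between 93.7% and 99.3% in Si1235.

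Among the survival genes, BCL2, the founding member of the family, had the most one-sided start. Its window (chr18:63319091-63321090) was covered by H2AZ over 95% and 100% in the NC1235 replicates and 98.6% and 99% in the Si1235 replicates. H3K9ac covered 98.5% in NC1235 against 95.1% in Si1235. H3K27ac covered 0% in all 4 libraries, and no H3K27ac region lay in the gene or within 10 kb of it. H3K36me3 covered 0% of the 196745 bp gene body in all 4 libraries. The BCL2 start thus carried the variant and, by the labels, H3K9ac, while the other acetyl mark and the mark of transcribed bodies were below the peak threshold in both arms. Of 612 genes with at least 95% cover of both H2AZ and H3K9ac in every library, 7 (1.14%) had no H3K27ac in any library, BCL2 among them. All 6 of the 7 that were protein-coding genes of at least 2.0 kb also had no H3K36me3 peak in the body. This combination was chosen after the BCL2 values were seen, and the 95% cut lies at the lowest of them. The place of BCL2 in the set was therefore fixed in advance, and the share only describes how many genes match. The H3K9ac peak at BCL2 was of modest height, at 8.51-fold enrichment in NC1235 against 11.6-fold in Si1235 by the authors' value; the MCL1 peak reached 49.7-fold and 54.1-fold in the same 2 lists.

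BCL2L1, which encodes BCL-XL, had a partly covered start in every promoter mark. H2AZ covered 65.5% and 76.2% of its window (chr20:31722964-31724963) in NC1235 against 79% and 69% in Si1235, with the arms overlapping. H3K27ac cover was nearly constant, at 54.7% and 54% in NC1235 against 55.9% and 54.6% in Si1235, a difference of 0.95 points (limma adjusted p = 0.858). H3K9ac covered 83.7% in NC1235 against 83% in Si1235. The start of BCL2L1 therefore differed little between arms in the extent of acetylation, and its larger difference in cover lay in the gene body, described below. The H3K27ac peak at the start was 74.8-fold and 59-fold enriched in NC1235 against 48.8-fold and 50-fold in Si1235. The H3K9ac peak was 35-fold enriched in NC1235 against 17.4-fold in Si1235, with 1 library per arm. These heights were not tested. Only the NC1235 H3K27ac lists were scaled, so scaling and arm cannot be told apart for that mark.

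MCL1, a short-lived survival protein that must be made continuously, had the highest fold enrichment of H3K27ac among the 10 genes in each list. By cover PMAIP1 was higher or level, at 100% in every H3K27ac library. No strand entry was matched for MCL1, so its window (chr1:150578611-150580610) was placed at the gene end with more cover of the other promoter marks. H3K27ac covered 96.6% and 99.9% of it in NC1235 against 100% and 95.7% in Si1235. The H3K27ac peak there had an enrichment of 91.8-fold and 79.7-fold in the NC1235 lists and 101-fold and 91.3-fold in the Si1235 lists, at or above the 99.0th percentile of peaks in each list. H3K9ac covered 98.2% in NC1235 against 100% in Si1235. H2AZ was the variable mark at MCL1, at 57.8% and 25.6% in NC1235 against 64% and 40% in Si1235. Both replicate 2 libraries were lower than both replicate 1 libraries, and the difference between arms of 10.32 points (limma SE 15.61, adjusted p = 0.95) was smaller than the gap between replicates. A lncRNA, LOC107985203, has an end inside the MCL1 window, so promoter cover there cannot be assigned to MCL1 alone.

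BAK1 encodes an effector that sits in the mitochondrial outer membrane. H2AZ covered 74.3% and 77.7% of its window (chr6:33579277-33581276) in NC1235 against 75% and 76.1% in Si1235. H3K27ac covered 53.2% and 60.9% in NC1235 against 51.5% and 63.2% in Si1235. The Si1235 values lay inside the NC1235 pair for H2AZ and outside it on both sides for H3K27ac, so the cover of neither mark separated the arms. In the BAK1 sequence printed above, H2AZ peaks covered 100% of the 250 bases in all 4 libraries. H3K9ac in the full window was 63.7% in NC1235 against 70.3% in Si1235.

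BCL2L11, whose BH3-only product BIM binds all the main survival proteins, had the largest H2AZ difference of the 10 genes. H2AZ covered 82% and 70.9% of its window (chr2:111119914-111121913) in NC1235 against 99.3% and 93.7% in Si1235. Both Si1235 libraries were above both NC1235 libraries. The difference was 20.05 points (limma SE 5.06, unadjusted p = 0.0226, adjusted p = 0.762), at 17.35 points within replicate 1 and 22.75 within replicate 2. Of the 17359 tested genes, 415 (2.39%) had a difference as high or higher.

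Part of the difference at BCL2L11 lay in a break in the called peaks at the start, which made up 12.35% of the window in NC1235 replicate 1 and 14.45% in replicate 2. The rest lay at the upstream edge of the window, uncovered over 5.70% and 9.0% in NC1235 against 0.70% and 6.35% in Si1235, and in a further gap of 5.65% at the downstream edge in NC1235 replicate 2. In NC1235 the break left uncovered chr2:111120724-111120970 in replicate 1 (247 bp) and chr2:111120687-111120975 in replicate 2 (289 bp). A single peak ran through this stretch in Si1235, 3484 bp wide in replicate 1 and 3377 bp in replicate 2. Of the 250 bases printed above for BCL2L11, H2AZ peaks covered 24% and 9.2% in NC1235 against 100% in both Si1235 libraries, and all 3 of its GC boxes lay inside the break in both NC1235 libraries. H3K27ac showed a break of 222 bp in NC1235 replicate 2 and of 256 bp in Si1235 replicate 2 at about the same place and none in either replicate 1, and the H3K9ac peak ran through in both arms. The H3K27ac break followed the replicate number and the H2AZ break followed the arm. H2AZ gaps at other members did not all follow the arm. In the 250 bases before the BMF start, H2AZ covered 100% and 8% in NC1235 against 100% and 10% in Si1235. Before the BCL2L1 start it covered 14% and 100% in NC1235 against 100% in both Si1235 libraries. At BAK1 and BAD these bases were covered in full in every library. H2AZ background levels in the 2 arms were close within a number (1.202 and 1.192 reads per position in replicate 1, 0.808 and 0.765 in replicate 2). Enrichment of the strongest H2AZ peak at BCL2L11 was 21-fold and 17.2-fold in NC1235 against 23.3-fold and 26.9-fold in Si1235.

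Cover of the acetyl marks at BCL2L11 did not separate the arms. H3K27ac covered 89.7% and 77.2% in NC1235 against 91.2% and 75.3% in Si1235, and H3K9ac covered 98% and 98.2%. The mean difference of H3K27ac was −0.25 points (limma adjusted p = 1).

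BID, which is cut by caspase-8 and so links death receptors to mitochondria, had the largest H3K27ac difference. H3K27ac covered 19.1% and 0% of its window (chr22:17773666-17775665) in NC1235 against 32.7% and 23.8% in Si1235. The arms did not overlap, but the gap between 19.1% and 23.8% was smaller than the gap between the NC1235 replicates. The difference was 18.73 points (limma SE 8.93, unadjusted p = 0.132, adjusted p = 0.547), at 13.65 points within replicate 1 and 23.80 within replicate 2; 490 of 15412 tested genes (3.18%) had a difference as high or higher. The peaks behind it were small, at 381 bp in NC1235 replicate 1 and 772 bp and 476 bp in Si1235, with enrichments of 5.91-fold, 7.99-fold and 9.03-fold, all of them inside the gene downstream of the start. The pileups of both NC1235 H3K27ac lists were scaled and those of the Si1235 lists were not, so scaling and arm cannot be told apart for this mark.

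The BID sequence printed above held no H3K27ac in any library, and H2AZ peaks covered at least 99.6% of it in all 4. H2AZ in the full window was 61.6% and 49.1% in NC1235 against 62.3% and 58.1% in Si1235. The lists labelled H3K9ac went the other way, at 65.8% in NC1235 against 52.8% in Si1235, a difference of −12.95 points with 1 library per arm. BID therefore had a higher H3K27ac value and a lower H3K9ac value in Si1235, and neither difference was backed by a test that passed.

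BAD, which is kept inactive by AKT phosphorylation when growth factors are present, was covered in every library. H2AZ covered 73% and 77.1% of its window (chr11:64283705-64285704) in NC1235 against 76.8% and 85.8% in Si1235. H3K27ac covered 82.5% and 80.4% in NC1235 against 85.3% and 82.5% in Si1235, and H3K9ac covered 100% in both arms. The H2AZ difference of 6.25 points (limma adjusted p = 0.902) and the H3K27ac difference of 2.47 points (adjusted p = 0.713) were each near the spread between replicates. The gene GPR137 on the opposite strand spans the whole BAD window, so cover there cannot be assigned to BAD alone.

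PMAIP1 encodes NOXA, which binds MCL1 and is a classical p53 target. H3K27ac and H3K9ac covered 100% of its window (chr18:59898996-59900995) in every library. H2AZ covered 100% and 74.9% in NC1235 against 100% and 86.2% in Si1235, so both replicate 2 libraries were the lower ones. A measure of extent cannot show a difference in H3K27ac or H3K9ac at PMAIP1, since the window was full in both arms. In height, the H3K27ac peak was 25.4-fold and 27.8-fold enriched in NC1235 against 55-fold and 56.5-fold in Si1235. The H3K9ac peak went the other way, at 49.2-fold in NC1235 against 37.2-fold in Si1235, with 1 library per arm. These heights were not tested. Only the NC1235 H3K27ac lists were scaled, so scaling and arm cannot be told apart for that mark.

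BMF, which is tied to the actin and myosin cytoskeleton and is released when cells detach, had an H2AZ cover of 77.5% and 59% in NC1235 against 74.4% and 56.5% in Si1235 (window chr15:40107880-40109879). Again the 2 replicate 2 libraries were lower, and the difference between arms of −2.83 points (limma adjusted p = 1) was small beside that. H3K27ac covered 76.7% and 76.3% in NC1235 against 76.7% and 73% in Si1235. H3K9ac covered 79% in NC1235 against 91.8% in Si1235, a difference of 12.85 points with 1 library per arm. BMF was the 1 member with H3K9ac at least 10 points higher in Si1235, and BID the 1 member with it at least 10 points lower; over all 17819 genes with a window covered by H3K9ac the shares were 10.6% and 15.6%.

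BIK, a BH3-only gene whose product acts at the endoplasmic reticulum, had a narrow spread of H2AZ cover, at 65.3% and 64.7% in NC1235 against 67% and 68.7% in Si1235. Its window (chr22:43109750-43111749) was placed by cover, as for MCL1. The arms did not overlap, with a difference of 2.82 points (limma SE 3.67, adjusted p = 0.936). The height of the H2AZ peak at BIK went the other way within each replicate number. It was 31.7-fold and 21.6-fold enriched in NC1235 against 25.5-fold and 13.4-fold in Si1235. H3K27ac covered 43.7% and 42% in NC1235 against 42.2% and 29% in Si1235, with Si1235 replicate 2 apart from the other 3 libraries. H3K9ac covered 79.3% in NC1235 against 72.4% in Si1235.

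Counted over the 10 genes, H2AZ cover was higher in Si1235 without overlap of the arms at 2 (BCL2L11 and BIK) and lower at 0. Among all tested genes 20.9% were higher without overlap and 10.8% lower, so 2 of 10 is near the background. The median difference in H2AZ cover was 3.99 points over the members and 1.23 points over all tested genes. These counts do not describe height. By fold enrichment, the strongest H2AZ peak was lower in both Si1235 libraries than in both NC1235 libraries at BCL2L1, MCL1 and PMAIP1. It was higher at BCL2L11. By percentile within its list, the BCL2L11 peak overlapped between arms, at 86.1 and 84.2 in NC1235 against 84.1 and 93.9 in Si1235. The peaks at BCL2, BAD and BIK were also lower in Si1235 without overlap by percentile. Heights were not tested or compared over all genes, so no share over all genes stands beside them. For H3K27ac, 1 of the 9 tested members was higher without overlap (BID) and 0 lower, against 23.3% and 17.7% of all tested genes, and the median difference was 0.00 points for both.

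**Figure D2:**
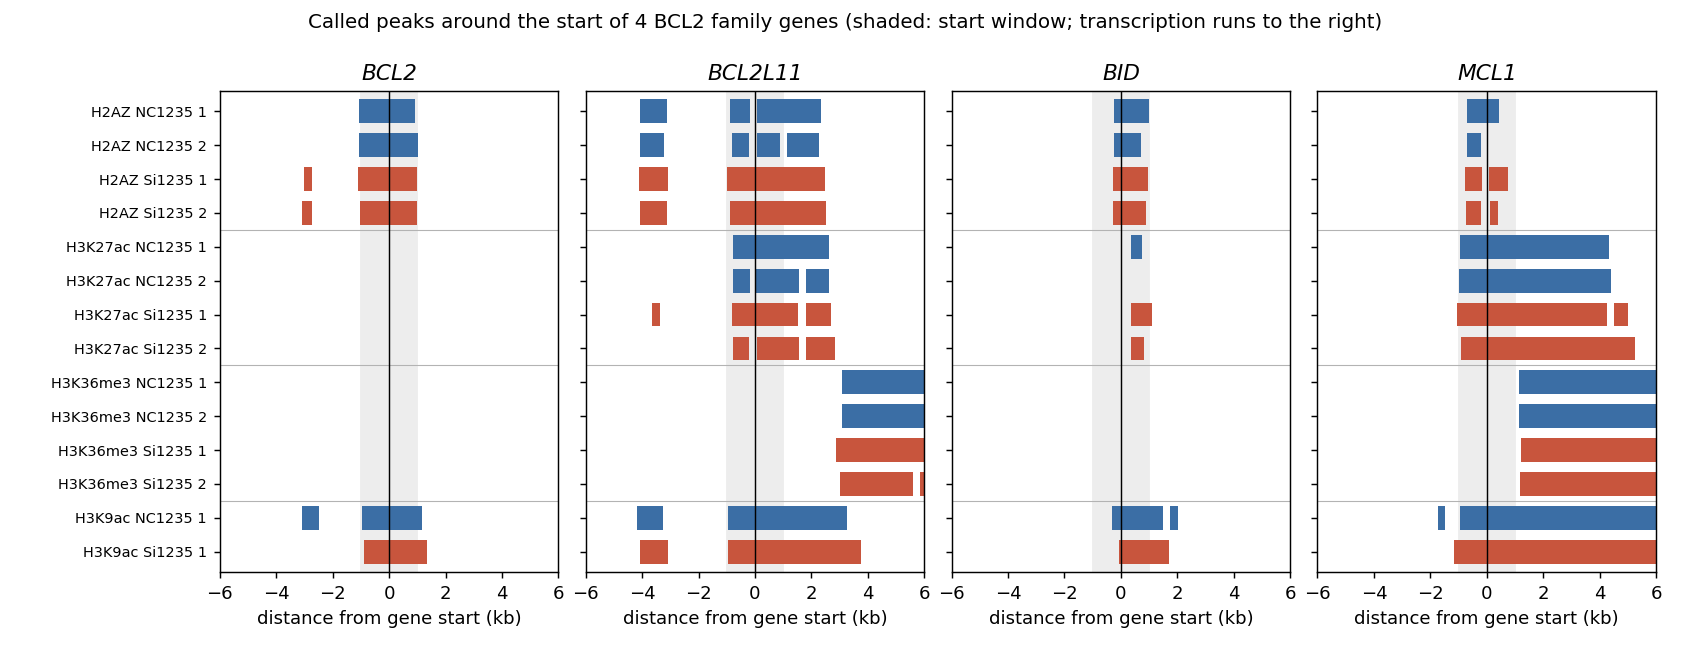
Called peaks of each library (y axis) by distance from the gene start in kb (x axis, transcription to the right) at BCL2, BCL2L11, BID and MCL1; bars are peaks, blue NC1235, red Si1235, and the shaded band is the start window. The H2AZ break at the BCL2L11 start is seen in both NC1235 libraries and in neither Si1235 library, BCL2 has no H3K27ac or H3K36me3 bar, and BID has a short H3K27ac bar in 3 of the 4 libraries.

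In the gene bodies, BCL2L1 had the largest H3K36me3 difference. Peaks covered 48.4% and 34.6% of its 59512 bp body in NC1235 against 68.5% and 55.5% in Si1235. Both Si1235 libraries were above both NC1235 libraries. The difference was 20.53 points (limma SE 7.64, unadjusted p = 0.0313, adjusted p = 0.556) and was alike within numbers, at 20.16 points in replicate 1 and 20.90 in replicate 2. Of the 8349 tested genes, 141 (1.69%) had a difference as high or higher. The background level of the H3K36me3 lists was lower in Si1235 than in NC1235 (1.096 against 1.496 reads per position in replicate 1, 0.788 against 1.034 in replicate 2); its part in the result was not tested.

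When the BCL2L1 body was cut into 3 equal parts, the part next to the start had 49.2% and 43.3% cover in NC1235 against 49.1% and 44.6% in Si1235. The middle part had 52.3% and 35.7% in NC1235 against 84.3% and 72.2% in Si1235. The part at the far end had 43.6% and 24.8% in NC1235 against 72.2% and 49.7% in Si1235. The arms were thus apart in the middle and distal parts and overlapped in the part next to the start. A lncRNA, BCL2L1-AS1, overlaps 70.1% of the BCL2L1 body and another, LOC124904883, overlaps 5.28%, so H3K36me3 there cannot be assigned to 1 gene.

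BMF and BIK had differences of opposite sign in the same mark. BMF had 40.2% and 31.1% of its body covered in NC1235 against 29% and 14.2% in Si1235. The difference was −14.04 points (limma SE 6.81, unadjusted p = 0.0781, adjusted p = 0.695), and 150 of the tested genes (1.8%) were as low or lower. BMF cover in the middle part of its body was 51.9% and 51.1% in NC1235 against 31% and 7.09% in Si1235, with no overlap of the arms. BIK had 6.16% and 2.23% covered in NC1235 against 16.3% and 10.1% in Si1235, a difference of 9.0 points (limma SE 3.27, unadjusted p = 0.0284, adjusted p = 0.547), and 944 of the tested genes (11.3%) were as high or higher. All BIK cover in NC1235 lay in the part of the body farthest from the start, while in Si1235 the middle part had 11.6% and 7.94%.

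The other bodies differed less. MCL1 had 77.4% and 77.2% cover in NC1235 against 75.7% and 76.7% in Si1235, the highest of the 10 genes, a difference of −1.12 points (limma adjusted p = 0.99). BCL2L11 followed with 64.9% and 56.6% in NC1235 against 64.6% and 62.6% in Si1235. BAK1 had 53.5% and 45% in NC1235 against 54.9% and 48% in Si1235, with no H3K36me3 in the part next to the start in any library.

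PMAIP1 had 43.3% and 41.8% in NC1235 against 40.8% and 33.8% in Si1235, a difference of −5.23 points (limma adjusted p = 0.952). BAD had 36.3% and 27.6% in NC1235 against 47.5% and 33.3% in Si1235, but the gene GPR137 on the opposite strand overlaps 95.3% of the BAD body, so the mark cannot be assigned to BAD. BID had 6.62% and 3.29% in NC1235 against 7.73% and 9.40% in Si1235, all in the part farthest from the start. By the mean over all 4 libraries the order ran MCL1, BCL2L11, BCL2L1, BAK1, PMAIP1, BAD, BMF, BIK, BID and BCL2, and neighbours in this order overlapped in range over the 4 libraries except MCL1 and BCL2L11, BAK1 and PMAIP1, and BID and BCL2.

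H3K36me3 was higher in Si1235 without overlap at 3 of the 9 members tested (BCL2L1, BID and BIK), lower at 3 (MCL1, PMAIP1 and BMF) and overlapping at 3. Over all tested genes 20.3% were higher without overlap and 13.7% lower. The median difference was 2.87 points over the 9 members and 0.69 points over all tested genes. BCL2 fell below the minimum mean cover of 5% and was not tested.

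**Figure D3:**
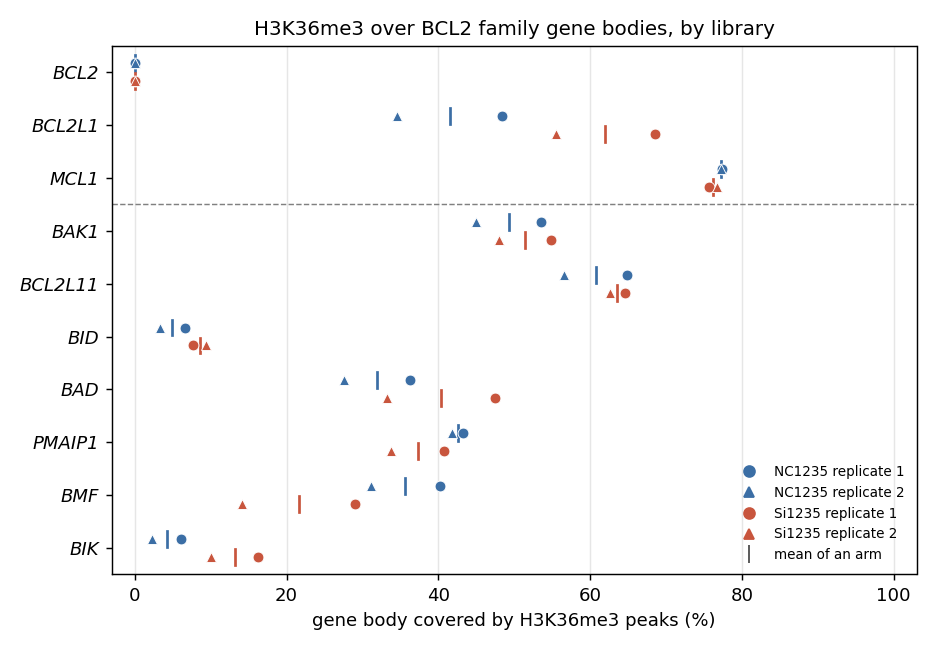
Percent of each gene body covered by H3K36me3 peaks (x axis) at the 10 genes (y axis); circles are replicate 1, triangles replicate 2, ticks the mean of an arm, blue NC1235 and red Si1235. BCL2L1 lies at 34.6% and 48.4% in NC1235 against 55.5% and 68.5% in Si1235, BMF lies lower in Si1235, and BCL2 is at 0% throughout.

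**Figure D4:**
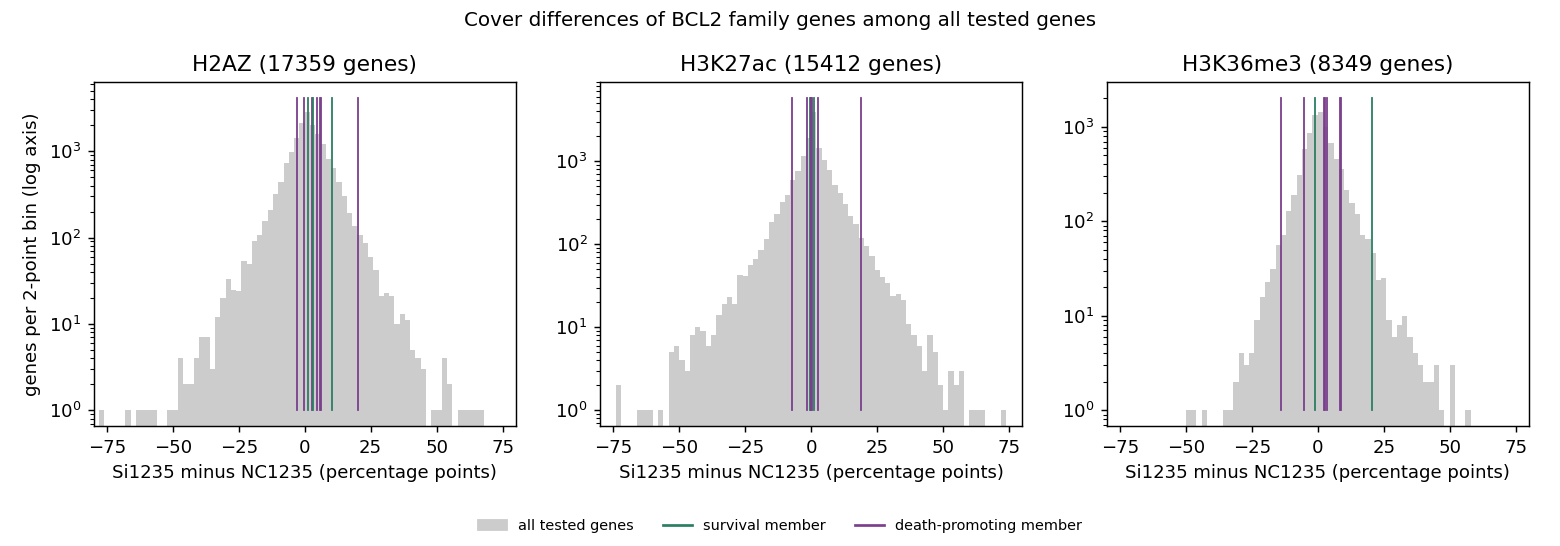
Number of tested genes (y axis, log scale) by difference in cover, Si1235 minus NC1235, in percentage points (x axis, 2-point bins), for H2AZ, H3K27ac and H3K36me3; vertical lines are survival members (green) and death-promoting members (purple). Most members lie in the middle of the grey distribution, and BCL2L11 (20.05) in H2AZ, BID (18.73) in H3K27ac and BCL2L1 (20.53) and BMF (−14.04) in H3K36me3 lie toward its edges.

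Survival and death-promoting members were set side by side by their mean cover in each library, with no test, since genes are not replicates. For H2AZ the survival mean was 72.8% and 67.3% in the NC1235 replicates and 80.5% and 69.4% in the Si1235 replicates, and the death-promoting mean was 76.3% and 67.6% in NC1235 against 79.3% and 75% in Si1235. Survival minus death was −3.47 and −0.33 points in NC1235 against 1.27 and −5.63 in Si1235, so it had no constant sign. For H3K27ac the survival mean was lower in all 4 libraries, at 50.4% and 51.3% in NC1235 against 52% and 50.1% in Si1235. The death-promoting mean was 66.4% and 62.4% in NC1235 against 68.5% and 63.8% in Si1235.

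BCL2, at 0%, enters this survival mean. The median of the other 2 was 76.3% in NC1235 against 76.6% in Si1235. Both values lie above the death-promoting mean of every H3K27ac library, so the order of the groups turned without BCL2. For H3K9ac the survival mean was 93.4% in NC1235 against 92.7% in Si1235 and the death-promoting mean 83.7% and 83.6%. For H3K36me3 the survival mean was 41.9% and 37.3% in NC1235 against 48.1% and 44.1% in Si1235, and the death-promoting mean 35.9% and 29.7% in NC1235 against 37.3% and 30.2% in Si1235. Survival minus death in H3K36me3 was 6.08 and 7.60 points in NC1235 against 10.80 and 13.86 in Si1235; of the 3 survival members BCL2L1 alone had a higher value in Si1235, with MCL1 slightly lower and BCL2 at 0%.

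**Figure D5:**
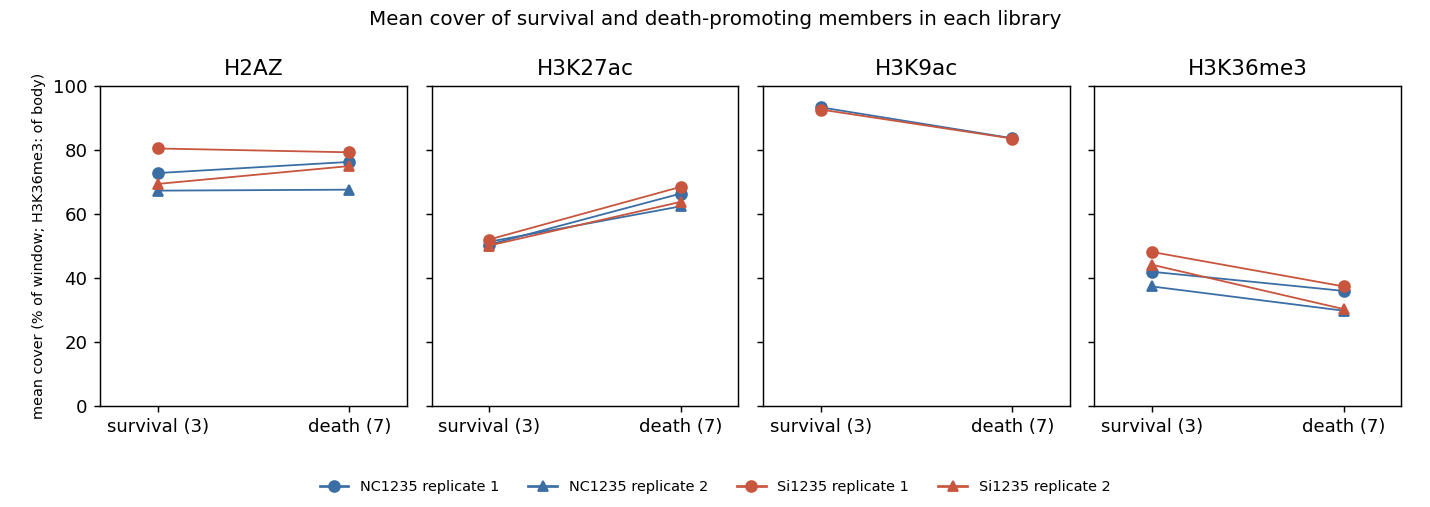
Mean cover in percent (y axis) of the 3 survival and the 7 death-promoting members (x axis) in each library, for H2AZ, H3K27ac, H3K9ac and H3K36me3; each line joins the 2 means of 1 library, blue NC1235, red Si1235, circles replicate 1 and triangles replicate 2. The H3K27ac lines climb from survival (50.1% to 52%) to death-promoting members (62.4% to 68.5%) in all 4 libraries, and the H3K36me3 lines descend. The H3K27ac climb rests on BCL2 at 0%, since the median of BCL2L1 and MCL1 was 76.3% in NC1235 against 76.6% in Si1235.

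Beyond the start windows, regions within the genes and 10 kb either side were compared by presence of a peak. Lost regions had a peak in the 2 NC1235 lists alone, and gained regions in the 2 Si1235 lists alone. Of 30 H2AZ regions near the members, 0 were lost and 3 gained, against 4.38% lost and 2.54% gained over all 63461 H2AZ regions. Of 46 H3K27ac regions, 0 were lost and 4 gained, against 5.77% and 3.92% of 52015. Of 51 H3K36me3 regions, 0 were lost and 2 gained, against 2.8% and 4.48% of 81471. Presence in 4 lists is not a test, and these counts are small.

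At BCL2, a gained H2AZ region of 966 bp lay inside the gene 122327 bp downstream of the start (chr18:63197281-63198246), with enrichments of 9.58-fold and 9.63-fold in the Si1235 replicates. Another gained BCL2 region of 377 bp had its centre at −2902 bp, counted from the start with upstream negative. BMF had a gained H2AZ region centred at −6998 bp. The gained H3K27ac regions lay inside BCL2L1 (chr20:31708057-31708916 and chr20:31716939-31717527), 7076 bp downstream of the MCL1 start and at −5306 bp from the BAK1 start. Their enrichments ran from 3.62-fold at BCL2L1 to 7.8-fold at BAK1, so all were weak beside the MCL1 promoter peak. The gained H3K36me3 regions lay inside BMF (chr15:40105649-40106116) and BIK (chr22:43117951-43118901); at BMF this single gain of 468 bp stood in a body whose total cover was lower in Si1235.

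ChIRP peaks, from a single library with no second arm, lay in the bodies of 7 of the 10 genes. BCL2 held 7 peaks over 1.13% of its body, BCL2L1 held 4 over 2.98%, BCL2L11, BMF and BIK held 2 each, and BAK1 and BID held 1 each. MCL1, BAD and PMAIP1 held none. Over 18723 protein-coding genes of at least 2.0 kb, 69% had a peak in the body and the median cover was 1.49%, so 7 of 10 is near the background. One start window, that of BMF, held a peak, over 11.1% of its length. That peak was weak, at 5.53-fold enrichment and percentile 10.4 of the list. The share of all start windows with a ChIRP peak was not computed.

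The strongest ChIRP peak near a member lay upstream of BCL2L11. It spanned chr2:111118986-111119665 (680 bp, centre at −1589 bp from the start), outside the start window, with an enrichment of 107-fold, the 99.88th percentile of the list. No H2AZ, H3K27ac, H3K9ac or H3K36me3 peak of any library overlapped it. A weaker peak at chr2:111117768-111118317 (27.6-fold) overlapped H2AZ peaks in 3 of the 4 libraries, at the edges only. It ran from −3146 to −2597 bp from the start. The H2AZ peaks ended at −3124 bp in NC1235 replicate 1 and at −3087 and −3107 bp in the Si1235 replicates. In BCL2L1 the strongest ChIRP peak (chr20:31719299-31719900, 47.2-fold) overlapped H3K27ac peaks in all 4 libraries. The sources used here do not name the captured RNA, and whether these peaks bear on the marks was not tested.

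Other genes of the pathway were read from fixed lists in the same fits, and 0 were called in any list or mark. Of 4 other death-promoting homologues (BAX, BOK, BBC3 and HRK), 3 were tested in each mark; 1 was higher in Si1235 without overlap in H2AZ, 1 in H3K27ac and 2 in H3K36me3, and 0 were lower, against 20.9%, 23.3% and 20.3% of all tested genes higher without overlap. BBC3, which encodes PUMA, had the largest H3K27ac difference of these lists, with 78.7% and 72.2% in NC1235 against 84% and 86.1% in Si1235 (9.62 points, limma adjusted p = 0.394). Of 3 other survival homologues (BCL2L2, BCL2A1 and BCL2L10), 1 was tested in each mark and the arms overlapped.

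Among 6 further relatives, BCL2L15 had H2AZ cover of 24.1% and 22.1% in NC1235 against 0% in both Si1235 libraries (−23.07 points, limma adjusted p = 0.689), and BNIP3 had 73.8% and 66.5% in NC1235 against 97.5% and 70.8% in Si1235. Of 22 apoptosis genes up- and downstream of the family, 21 were tested for H2AZ (2 higher without overlap, 0 lower), 20 for H3K27ac (6 higher, 1 lower) and 20 for H3K36me3 (8 higher, 3 lower). Over all tested genes the shares were 20.9% higher and 10.8% lower (H2AZ), 23.3% higher and 17.7% lower (H3K27ac), and 20.3% higher and 13.7% lower (H3K36me3); no test was made of these lists. HTRA2, which encodes a mitochondrial protease that antagonises inhibitors of apoptosis, had H3K36me3 cover of 13.7% and 10.7% in NC1235 against 39.8% and 24.4% in Si1235 (19.89 points, limma adjusted p = 0.435). CFLAR, the gene of the caspase-8 inhibitor FLIP, had 41.5% and 28.6% in NC1235 against 32% and 24% in Si1235, with the arms overlapping. For CASP9, the initiator caspase of the mitochondrial pathway, H3K27ac was 100% and 70% in NC1235 against 87.3% and 68.5% in Si1235.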

How the data were processed

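Per the submitters' processing notes, the genome build was hg38 and the tools were Bowtie2 2.2.9, MACS2, HTSeq 2.0.3 and DESeq2 1.22.2, with no role stated for any of them. Peak-calling settings and the control used are not given in the sources used here. Each of 15 libraries had its own list; the 2 inputs were not analysed here. The deposited lists have the narrowPeak layout: per peak, the authors' fold enrichment (a linear ratio) plus its p-value and q-value, both as −log10, with no −log10 q under 2.00029. Fold enrichment is the authors' value and was not normalized between lists here. Heights of different lists set side by side are therefore descriptive only.

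The background level came from 1500 weak peaks per library, by solving their fold enrichment and p-value for a pileup (tolerance 0.002). Whole-number pileups came out for 100.0% of solved peaks in 13 libraries and for 0.7% and 12.7% in the NC1235 H3K27ac replicates 1 and 2, which were taken as scaled.

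Gene positions came from the RefSeq table (GRCh38.p14). The gene start was the outermost end by the strand of RefSeq promoter entries (71.3% of genes); for other genes it was the end with more cover of the other promoter marks, a rule that gave the strand entry's end in 89.7% to 90.1% of genes where both could be compared. Windows were 1.0 kb either side, and H3K36me3 was read over protein-coding bodies no shorter than 2.0 kb. Genes whose mean cover over 4 libraries reached 5% were tested with limma 3.58.1 (R 4.3.3, trend, no replicate term, two-sided, Benjamini-Hochberg, 0.05). The same fit was also run on simulated cover with known shifts. It used the gene means of these data and normal noise, with the NC1235 replicate spread shuffled over genes. That run bears on how the fit works and not on any result here. Union regions merged peaks that overlapped or touched, with an overlap of at least 1 bp counted as presence. Other windows, stricter peaks (−log10 q of at least 5), equal numbers of top peaks, trimmed bodies, other filters, quantile normalization, a replicate block and leaving out each replicate were tried.

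All 10 members are named in every mark, with every gene past the threshold and the largest difference in each direction from lists of related genes. The members and lists were chosen with earlier results of these data known. The names inside the H3K9ac lists differ from the label. The split of bodies into 3 parts, the break at BCL2L11, the mark combination at BCL2 and the sequences shown were chosen after the values were seen.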

Additional observations from a re-analysis of the deposited data

How the results depend on the processing

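No BCL2 family member passed the threshold under any alternative; the lowest adjusted p of a member was 0.0803 (limma, BCL2L1 H3K36me3). The differences at BCL2L11 in H2AZ (13.43 to 26.80 points), BID in H3K27ac (8.55 to 28.25) and BCL2L1 (13.64 to 27.42), BIK (5.90 to 12.10) and BMF (−21.42 to −6.66) in H3K36me3 kept their sign under every alternative that gave a value. Over the named genes and the 3 replicated marks, 29 of 383 values turned sign. Apart from single left-out libraries these were BMF H2AZ (1.95) and BMF H3K27ac (1.40) with a window of 0.5 kb, MCL1 H3K27ac (0.25) with 2.5 kb, BAK1 H3K27ac (−0.47) with quantile normalization and BCL2L11 H3K36me3 (−0.38) with stricter peaks; the cause was not tested. Leaving out each library in turn gave H2AZ ranges of −1.20 to 3.75 at BCL2, −2.20 to 8.50 at BCL2L1, −5.73 to 26.38 at MCL1, −2.08 to 1.2 at BAK1, −1.45 to 11.10 at BID, −6.90 to 18.20 at PMAIP1 and −12.05 to 6.40 at BMF. The same gave H3K27ac ranges of −2.55 to 1.75 at MCL1, −5.55 to 6.20 at BAK1, −8.18 to 7.67 at BCL2L11, −3.58 to 0.17 at BMF and −22.10 to 7.90 at CASP9, and H3K36me3 ranges of −2.03 to 6.43 at BAK1 and −1.27 to 7.0 at BCL2L11. An arm left with 1 library was assumed to vary like the other arm. Over all genes, H3K27ac calls went from 68 to 4 with a window of 2.5 kb, 12 with 0.5 kb and 125 to 313 without 1 library, and H3K36me3 calls from 0 to 93 with quantile normalization and 38 to 189 without 1 library. With the replicate block, H3K27ac calls went from 68 to 0 and no other count changed; the labels do not pair the numbers, and deviations of same-numbered libraries correlated at 0.18 for H2AZ, 0.06 for H3K27ac and 0.296 for H3K36me3. H3K36me3 regions near the members became 1 lost and 7 gained of 51 when an overlap of 50% was required, against 3144 and 4222 of all 81471. With stricter peaks they became 1 lost and 5 gained of 44, against 1696 and 2169 of 53125. Equal numbers of top peaks gave 1 lost and 2 gained of 51, against 2916 and 2263 of 74591. Gained H3K27ac regions went from 4 to 3 of 46 with the 50% overlap, against 2837 of 52015. With equal numbers of top peaks they became 6 of 44, against 1964 of 50007. The mean H3K9ac difference over the 10 members was −0.39 points with 2.5 kb, 0.61 with 0.5 kb and −0.24 with stricter peaks, and single H3K9ac libraries allow no test. Placing windows at the first listed promoter entry, an alternative chosen after seeing the data, turned no sign at a member. Depth is not given in the lists, so a cover of 0% means only that no peak passed the authors' threshold.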
